A study of Homo sapiens with 9 samples.

Results

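The genes described here encode the subunits of RNA polymerase I and the factors that build ribosomes in the nucleolus. They are 48 genes, chosen by name with earlier results of these data known. They were followed in LiSa-2, a human liposarcoma cell line, after exposure to hyaluronidase from bovine testis (HAase), which cleaves hyaluronan, a large sugar polymer of the extracellular matrix. Affymetrix U133 Plus 2.0 expression arrays were run on 3 groups of 3 samples: HAase at 400 µg/mL for 24 h, HAase at 400 µg/mL for 6 h, and phosphate-buffered saline (PBS) for 24 h, all in medium with bovine serum. PBS was harvested at 24 h alone, so that at 6 h the enzyme and the earlier harvest cannot be told apart, and inactivated enzyme is not among the groups. Nothing in the labels ties the triplicates to separate dishes, and the p-values therefore cover a spread between samples that may be technical.

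Of the 48 genes, 45 had a probe set annotated with that 1 symbol, among 19775 genes of the array that had one. NOP56, DKC1 and BOP1 lie only on probe sets with several symbols and are not analysed here. Where a gene had several probe sets, the one with the highest mean signal over all arrays stood for it. NOP53 had signals between 8.33 and 42.5, below the filter on low signals, and was not tested, which left 44 members tested among 13842 genes. All 44 lay, on every array, above the brightest of that array's 27 Bacillus subtilis control probe sets. This control level was 34.2 to 65.0.

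Ribosome production begins when RNA polymerase I transcribes the precursor of the large ribosomal RNAs (pre-rRNA) in the nucleolus. Small nucleolar ribonucleoproteins (snoRNPs) then modify the precursor, the small subunit processome folds and cleaves the part that becomes the 40S subunit, and a separate series of factors assembles the 60S subunit. The pathway is among the largest consumers of energy in growing cells, and the transcription factor MYC is known to drive many of its genes.

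The deposited values are linear probe set signals, scaled per array to a common trimmed mean. They were tested as log2(signal + 16) with limma across all 9 arrays, and a gene was called higher or lower at a Benjamini-Hochberg adjusted p under 0.05 over the 13842 genes. Fold changes are on that log2(signal + 16) scale, with the standard error (SE) of the model. The members' replicate standard deviation was 0.035 to 0.20 on the log2 scale, with a median of 0.086. Arrays of 1 group correlated at a median r of 0.984 to 0.985 across genes, and arrays of different groups at no more than 0.976.

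As a check of the cell type, 5 genes of the chromosome 12 region often amplified in liposarcoma were measured. MDM2 and CDK4 lay above the control level on all 9 arrays and did not pass the test against PBS. HMGA2 had a mean signal of 1643 at 24 h and 725 at 6 h, against 51.0 in PBS, where 1 of 3 arrays lay above the control level. At 6 h YEATS4 was lower (-0.35) and CPM higher (0.37), and neither passed at 24 h. Of 8 adipocyte markers, 7 were lower at 24 h and 5 at 6 h, and LEP was never above the control level. Their summed signal was 28974 to 33584 at 24 h and 44696 to 46879 at 6 h, against 56742 to 58802 in PBS. Of 7 leukocyte markers, 5 were measured, and their sum was 1043 to 1147 at 24 h and 313 to 385 at 6 h, against 185 to 237 in PBS. LAPTM5 and LCP1 made up most of it at 24 h, and PTPRC, the defining marker of leukocytes, was never above the control level. No epithelial marker changed, with 5 of 7 never above the control level, and of 6 endothelial markers PECAM1 was higher at both times and CDH5, TEK and CLDN5 were never above the control level. Of 6 mesenchymal markers, 1 was higher and 2 lower at 24 h, and 2 were higher and 1 lower at 6 h. COL1A1 was lower at 24 h (-1.84) and COL1A2 at both times (-2.15 and -0.48), FN1 was higher at both (0.71 and 0.52), PDGFRB was higher at 6 h (1.14), and VIM and THY1 did not pass the test. Their summed signal was 54384 to 63568 at 24 h and 55979.5 to 59358 at 6 h, against 48536 to 49799 in PBS. The log2 ratio of 3′ to 5′ ACTB probe sets, a measure of RNA integrity, was 1.38 to 1.62 at 24 h and 1.14 to 1.5 at 6 h, against 1.56 to 1.70 in PBS. For GAPDH the ratio was -0.21 to -0.023 at 24 h and -0.056 to 0.038 at 6 h, against -0.017 to 0.041 in PBS. The part of these differences in the results below was not tested.

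Most of these ribosome biogenesis genes were more strongly expressed after hyaluronidase, by less than 2-fold, and more of them passed the test at 6 h than at 24 h. At 24 h, 24 of the 44 members were higher than in PBS and 1 was lower (NOP9), whereas 17.5% of all genes tested were higher and 22.8% lower (40.3% in either direction). At 6 h, 32 members were higher and none was lower (0 also at an unadjusted p under 0.05 by limma), whereas 15% of all genes were higher and 27.4% lower (42.4% in either direction). With the arrays set to equal medians over the genes tested, 3136 genes were higher and 2387 lower at 6 h, in place of 2073 and 3790, and 38 members were higher and none lower. The median log2 fold change of the members was 0.27 at 24 h, against -0.026 for all genes tested, and 0.39 at 6 h, against -0.083. A rise of 1.5-fold or more passed the test in 4 members at 24 h (7.69% of all genes) and in 11 at 6 h (6.70%), and no member fell that far at 24 h (9.95%) or at 6 h (10.5%). The 3 arrays of HAase did not overlap the 3 PBS arrays in 32 members at 24 h, against 52.0% of all genes, and in 37 at 6 h, against 54.2%. Of these, 30 lay above PBS and 2 below at 24 h (23.1% and 28.9% of all genes), and 36 above and 1 below at 6 h (19.7% and 34.5%). RNA was taken from whole cultures, in which a change in the share of cells and a change in RNA per cell cannot be told apart.

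The calls against PBS fell into 5 patterns. Higher at both times were 21 members: POLR1B, POLR1D, POLR1E, NOP58, NCL, UTP3, UTP4, UTP6, UTP11, UTP15, UTP18, UTP25, NOL10, NOP14, RRP9, BYSL, RRP12, PES1, NOC2L, NOC3L and RRP15. Another 11 passed the test at 6 h and not at 24 h: POLR1C, NOP10, UTP14A, UTP20, UTP23, NOL11, RRP36, TSR1, NOP2, NOP16 and RRP1. NOL6, WDR12 and RRP1B passed at 24 h alone, NOP9 was lower at 24 h, and 8 members passed at neither time: POLR1A, FBL, NPM1, NOC4L, RRP7A, NOL8, NOL9 and RRP8. The 2 comparisons share the PBS arrays. Whether a member differed between the times is given with the direct comparison of 24 h with 6 h below.

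**Figure D1:**
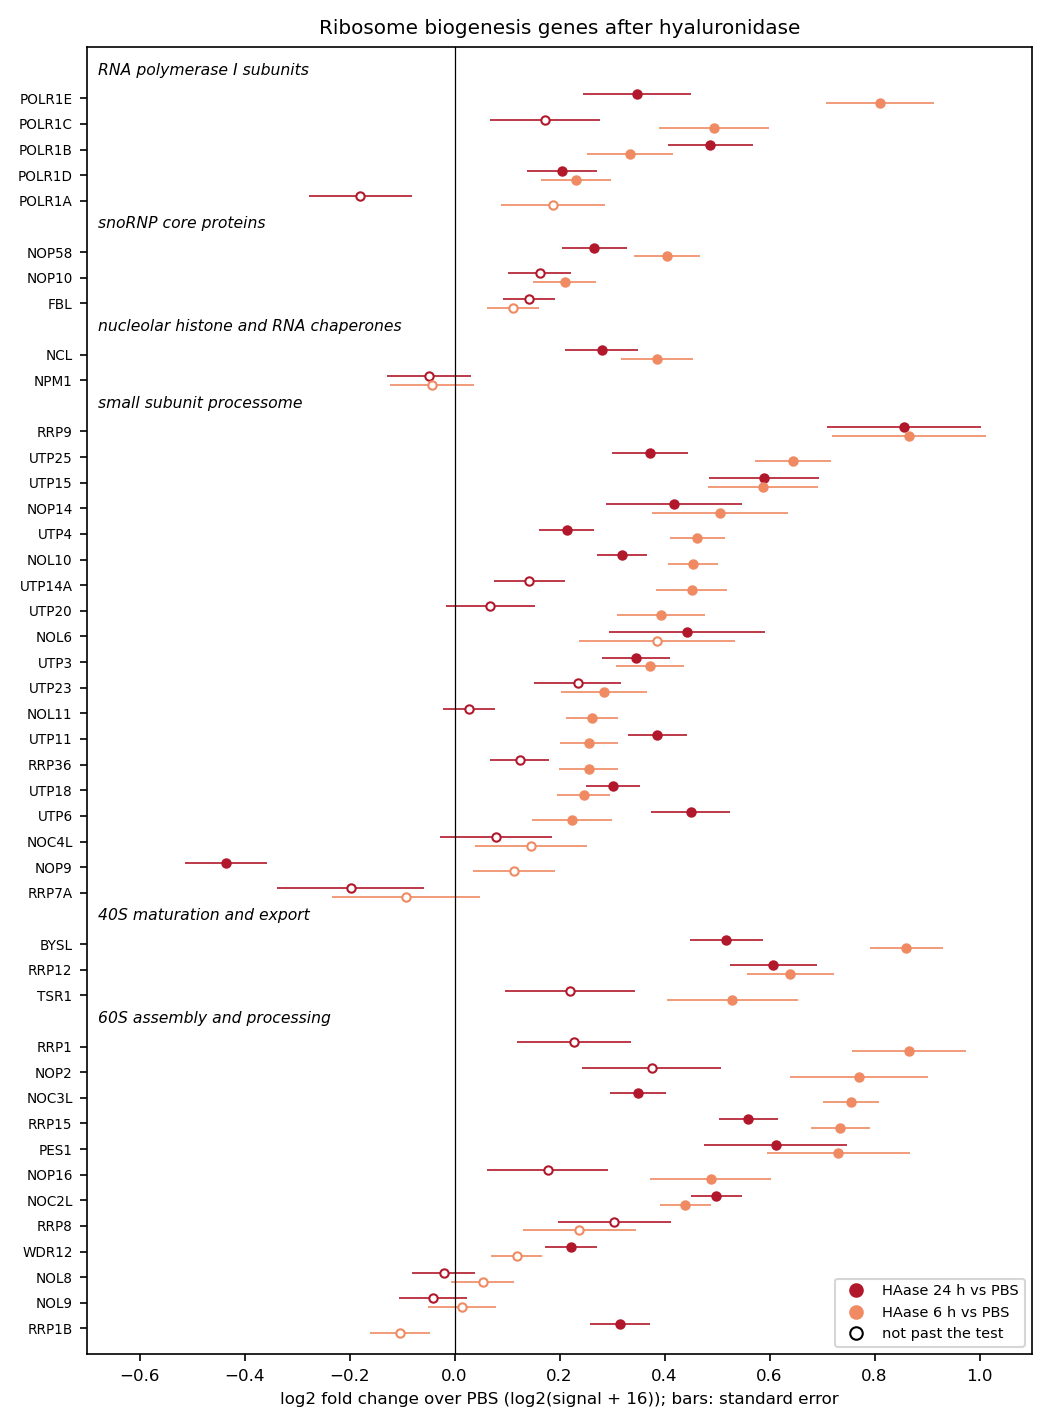
Log2 fold change over PBS of the 44 members tested, by role, at 24 h (dark red, upper point) and at 6 h (orange, lower point) of hyaluronidase. Bars are standard errors and open circles did not pass the test. Most points lie right of 0, up to 0.87 for RRP9 at 6 h, and NOP9 at 24 h, at -0.44, is the filled circle left of 0.

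The start sites of these genes were searched for 2 short motifs. MYC binds the E-box CACGTG, and factors of the ETS family and others bind CCGGAAG, both known from the promoters of many widely expressed genes. The windows ran from 250 bases before to 50 bases after the start site in a RefSeq promoter table of build GRCh38.p14, which held 41 of the 48 genes. CACGTG, which reads the same on both strands, was found in 15 of the 41 (36.6%), against 7.26% of all 35116 promoters and 10.9% of protein-coding genes. CCGGAAG on either strand (CTTCCGG on the other) was also found in 15 (36.6%), against 10.3% of all promoters and 16.5% of protein-coding genes, and 6 members held both motifs: FBL, NOC3L, NOP10, RRP9, UTP18 and UTP4. A match of one motif cannot overlap a match of the other, but in NOP16 and POLR1C a CTTCCGG overlapped a CCGGAAG. Of the 17 CACGTG matches, 14 began between 16 bases before and 36 bases after the start site. Of the 15 tested members with CACGTG, 12 were higher at 6 h, with a median log2 fold change of 0.46, and of the 23 tested members with a promoter lacking it, 15 were higher, with a median of 0.26. For CCGGAAG the same counts were 13 of 15 with a median of 0.44 and 14 of 23 with a median of 0.26. Whether members with and without a match differed was not tested for either motif. How many of all genes with a match rose was not counted. A match describes the sequence and does not show that a factor binds there.

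The 4 members with the largest rise at 6 h among those with CACGTG were RRP9, BYSL, NOP2 and NOC3L, and the 30 bases around each match are shown on the gene's strand, 5′ to 3′, with CACGTG in capitals.
RRP9: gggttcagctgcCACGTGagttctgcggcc
BYSL: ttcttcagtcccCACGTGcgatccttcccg
NOP2: gctaggtccggattgCACGTGgagggccgc
NOC3L: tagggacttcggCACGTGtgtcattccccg
The RRP9 window is chr3:51941892-51941921 on the minus strand, and its CACGTG begins 5 bases before the start site. The BYSL window is chr6:41921515-41921544 on the plus strand, with the motif beginning at base 29 of the transcript. NOP2 lies at chr12:6568242-6568271 on the minus strand with the motif beginning at base 36, and NOC3L at chr10:94362903-94362932 on the minus strand with the motif beginning at base 20. The RRP9 match spans the start site, and the other 3 lie in the first transcribed bases.

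RNA polymerase I has catalytic subunits of its own and others that it shares with other polymerases, and 3 of its 5 listed subunits were higher at 24 h and 4 at 6 h. POLR1E (218997_at), the PAF53 subunit that acts at initiation and elongation, had signals of 803, 802 and 801 at 24 h and 1003, 1135 and 1208 at 6 h, against 728, 593 and 571 in PBS. Its log2 fold change was 0.35 ± 0.10 (SE) at 24 h and 0.81 ± 0.10 at 6 h (1.75-fold, limma adjusted p = 0.000505), so that the 6 h arrays stood apart from both other groups. POLR1B (223403_s_at), the second largest subunit, had 1554, 1646 and 1798 at 24 h and 1569, 1395 and 1523 at 6 h, against 1267, 1098 and 1187 in PBS, higher at both times (0.49 ± 0.081 and 0.33 ± 0.081), and the arrays of the HAase groups overlapped each other.

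POLR1C and POLR1D form a pair that RNA polymerases I and III share. POLR1C (207515_s_at) had 1093, 1109 and 925 at 24 h and 1379, 1178 and 1360.0 at 6 h, against 1013, 839.9 and 915 in PBS, and was higher at 6 h alone (0.49 ± 0.10, adjusted p = 0.00636). POLR1D (218258_at) had 3784, 3829.5 and 4261 at 24 h and 4008, 3977 and 4090.3 at 6 h, against 3485, 3592 and 3217 in PBS, a small rise at both times (0.20 ± 0.066 and 0.23 ± 0.066). POLR1A (228515_at), the largest, catalytic subunit, had 524, 666 and 611 at 24 h and 861, 727 and 744 at 6 h, against 671, 694 and 672 in PBS, so that it lay below PBS at 24 h and above it at 6 h. The differences against PBS, -0.18 ± 0.099 at 24 h and 0.19 ± 0.099 at 6 h, did not pass the test. The calls of POLR1D were close to the threshold (adjusted p = 0.0404 and 0.0247). They were lost at 24 h when any of 7 single arrays was left out (PBS 1 or 3, any 6 h array, or 24 h array 2 or 3; adjusted p = 0.058 to 0.12), and at 6 h without PBS array 1 or 3 or any 6 h array (0.052 to 0.077). The 24 h call of POLR1E was lost without PBS array 2 or 3 or any 24 h array (0.067 to 0.091).

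Among 14 partners and regulators of RNA polymerase I, 3 were higher and 1 lower at 24 h, and 6 were higher and none lower at 6 h (0 lower also at an unadjusted p under 0.05). At 24 h the share higher, 21.4%, was near the 17.5% of all genes tested, and at 6 h it was 42.9%, against 15%. The median log2 fold change of the list was 0.056 at 24 h and 0.20 at 6 h, against -0.026 and -0.083 for all genes. The largest rise was that of POLR1G, the subunit that pairs with POLR1E, at 3194 ± 568 at 24 h and 3982 ± 253 at 6 h, against 1528 ± 113 in PBS (mean ± SD, n = 3 each), or 2.06-fold and 2.59-fold. TAF1A, a subunit of the promoter-binding factor SL1, was 1.81-fold and 1.69-fold higher, with 1053 ± 83.1 at 24 h and 979.6 ± 41.2 at 6 h, against 574 ± 41.6 in PBS. MYC was at 5229 ± 9.63 at 24 h and 7822 ± 124 at 6 h, against 3064 ± 66.8 in PBS, a log2 fold change of 0.77 ± 0.044 and 1.35 ± 0.044. At 24 h the rise of POLR1G was above that of RRP9, the largest among the members (0.86 ± 0.15). TAF1A was level with RRP9 (0.86 ± 0.079), and MYC stood above all members but RRP9. Differences between these genes were not tested. RRN3, which recruits the polymerase to the promoter, gave 0.049 ± 0.077 at 24 h and 0.23 ± 0.077 at 6 h (adjusted p = 0.658 and 0.0443), the second past the test, and lost that call without any of 7 single arrays (PBS 1 or 2, 6 h 1 or 2, or any 24 h array; 0.061 to 0.14). UBTF, which shapes the rDNA chromatin, gave 0.013 and -0.11, neither past the test (adjusted p = 0.911 and 0.3). CAVIN1, a caveolar coat protein also described as a transcript release factor of RNA polymerase I, fell at 24 h (-0.20 ± 0.062) and rose at 6 h (0.25 ± 0.062). Its fall was lost without any of 7 single arrays (any PBS or 24 h array, or 6 h array 2; 0.053 to 0.087).

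Subunits of the other polymerases are given for comparison. Of 10 RNA polymerase III subunits tested, 5 were higher and 1 lower at 24 h, and 1 was higher and 1 lower at 6 h. The largest rises past the test were POLR3D (0.60 ± 0.12 at 24 h and 0.44 ± 0.12 at 6 h), POLR3E (0.33 ± 0.061 at 24 h) and POLR3A (0.32 ± 0.081 at 24 h). POLR3GL, one of a pair of alternative subunits, was lower at both times (-0.43 ± 0.071 and -0.70 ± 0.071). Of 7 RNA polymerase II subunits, 1 was higher and 1 lower at 24 h, and 2 were higher and 2 lower at 6 h. POLR2C (0.39 ± 0.053) and POLR2D (0.31 ± 0.085) rose at 6 h, and POLR2I fell by 0.31 on the log2 scale. Of 5 subunits common to the polymerases, 1 was lower at 24 h (POLR2L, -0.28 ± 0.055) and none passed the test at 6 h (1 at an unadjusted p under 0.05). POLR3D lost its 6 h call without 6 h array 1 (adjusted p = 0.054). POLR2D lost its 6 h call without PBS array 2 or 3 or 6 h array 3 (0.051 to 0.068), and its 24 h call without PBS array 2 or 3 or 24 h array 1 or 2 (0.065 to 0.098).

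The snoRNP core proteins changed by small steps. NOP58 (223096_at), which holds box C/D guide RNAs, had 8351, 8358 and 8151 at 24 h and 8998, 8713 and 9676 at 6 h, against 6610.1, 6727 and 7344 in PBS, higher at both times (0.27 ± 0.062 and 0.40 ± 0.062). FBL (211623_s_at), fibrillarin, the methyltransferase of the same particles, had 16066, 17297 and 16140.2 at 24 h and 16249, 15964 and 16257 at 6 h, against 14642, 15300.1 and 14917 in PBS. Its arrays did not overlap those of PBS at either time, yet the differences of 0.14 ± 0.05 and 0.11 ± 0.05 did not pass the test (adjusted p = 0.0545 and 0.11). NOP10 (217962_at), of the box H/ACA particles that carry out pseudouridylation, had 11745, 11430.2 and 12112 at 24 h and 11948, 11495 and 13076 at 6 h, against 10316, 10498 and 10715 in PBS. It passed the test at 6 h alone (0.21 ± 0.06, adjusted p = 0.0248) and lost that call without PBS array 1 or 2 or 6 h array 3 (0.065 to 0.075). Without 6 h array 3 it passed at 24 h instead (0.042).

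Of 12 other snoRNP proteins and assembly factors, 7 were higher and none lower at 24 h (0 lower also at an unadjusted p under 0.05), and 6 were higher and 2 lower at 6 h. NOLC1, a nucleolar phosphoprotein that travels with snoRNPs, was higher by 0.49 ± 0.049 at 24 h and 0.72 ± 0.049 at 6 h, with signals of 3791 ± 83.3 and 4465 ± 144, against 2695 ± 71.7 in PBS (SD, n = 3 each). TCOF1, treacle, a nucleolar partner of RNA polymerase I, was higher by 0.62 ± 0.078 and 0.55 ± 0.078, and SHQ1, the chaperone of dyskerin, by 0.25 ± 0.046 and 0.55 ± 0.046. ZNHIT3, an assembly factor of box C/D particles, fell by 0.27 on the log2 scale at 6 h.

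Of the 2 nucleolar chaperones, 1 passed the test, at both times. NCL (200610_s_at), nucleolin, which binds pre-rRNA, had 7614, 8103 and 7764 at 24 h and 8348, 8463 and 8441 at 6 h, against 5824, 6760.4 and 6788 in PBS, higher by 0.28 ± 0.069 and 0.39 ± 0.069. NPM1 (200063_s_at), nucleophosmin, a histone chaperone with many processed gene copies, had 32210.0, 33538 and 27552 at 24 h and 30696, 32673 and 30059.5 at 6 h, against 31076, 32169 and 32975 in PBS, with all groups overlapping (-0.049 and -0.043). Another NPM1 probe set passed the test at both times, as given with the probe sets below.

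The small subunit processome, which assembles on the nascent pre-rRNA, had 11 of its 19 members higher and 1 lower at 24 h, and 15 higher and none lower at 6 h, with median log2 fold changes of 0.30 and 0.37. RRP9 (204133_at), a protein of the U3 snoRNP, rose furthest of the 44 members at 24 h and was level with RRP1 and BYSL at 6 h. It had signals of 389, 310.0 and 310.2 at 24 h and 407, 283 and 331 at 6 h, against 194, 157 and 185 in PBS, 1.81-fold and 1.82-fold higher (adjusted p = 0.00232 and 0.00224). Its signals varied among arrays of a group more than those of most members, and every HAase array still lay above every PBS array.

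UTP15 (228050_at), of the subcomplex that first meets the pre-rRNA, had 943, 808 and 908 at 24 h and 939.9, 829.6 and 881 at 6 h, against 620.1, 501 and 635 in PBS, and was 1.5-fold and 1.5-fold higher. UTP25 (204700_x_at) had 1507, 1343 and 1258 at 24 h and 1638, 1627 and 1688 at 6 h, against 1006, 1081 and 1067 in PBS, 1.3-fold and 1.56-fold higher, with all 3 groups apart. NOP9 (225514_at), a Pumilio-repeat RNA-binding protein, went the other way, with 162, 144 and 159 at 24 h and 219, 253 and 231 at 6 h, against 223, 226 and 197 in PBS. At 24 h it was 1.35-fold lower (-0.44 ± 0.078, adjusted p = 0.00286), the single member called lower against PBS, and at 6 h it did not pass the test (0.11).

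Proteins that share a subcomplex did not all pass the same tests. UTP4, which belongs with UTP15, was higher by 0.21 ± 0.053 and 0.46 ± 0.053. NOL11, a further protein of that subcomplex in animals, was higher at 6 h alone (0.26 ± 0.05). UTP18 (203721_s_at), of the next subcomplex, had 8692, 8261 and 8898 at 24 h and 8488, 8049.5 and 8317 at 6 h, against 7033, 6829 and 7092 in PBS, higher by 0.30 ± 0.051 and 0.25 ± 0.051. UTP6, its neighbour there, was higher by 0.45 ± 0.076 and 0.22 ± 0.076. The 6 h call of UTP6 was lost without any of 7 single arrays (PBS 1 or 2, any 6 h array, or 24 h array 2 or 3; adjusted p = 0.057 to 0.14). NOP14 was higher by 0.42 ± 0.13 and 0.51 ± 0.13, and its partner NOC4L did not pass the test (0.078 and 0.15). The calls of NOP14 were lost at 24 h without PBS array 1 or 3 or any 24 h array (0.051 to 0.11) and at 6 h without PBS array 1 or 3 (0.051 to 0.053). UTP14A, a partner of the helicase DHX37, was higher at 6 h (0.45 ± 0.068), as was the large scaffold protein UTP20 (0.39 ± 0.084), and neither passed at 24 h (0.14 and 0.068).

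Of the remaining processome members, UTP3 (0.35 and 0.37), UTP11 (0.39 and 0.26) and NOL10 (0.32 and 0.45) were higher at both times. NOL10 (222684_s_at), whose yeast counterpart is Enp2, had 2471, 2436 and 2430.1 at 24 h and 2697, 2740.4 and 2626 at 6 h, against 2022, 1969 and 1883 in PBS, with the 3 groups apart. The next 2 members stood above PBS on every HAase array and passed the test at 6 h alone. UTP23 (227836_at) had 1661, 1669 and 1700.5 at 24 h and 1845, 1513 and 1876 at 6 h, against 1431, 1404 and 1434 in PBS, a difference of 0.28 ± 0.082 at 6 h. Its call was lost without any PBS array or 6 h array 1 or 3 (adjusted p = 0.058 to 0.081), and without 6 h array 2 it gained one at 24 h (0.0066). RRP36 (225788_at) had 2302, 2202 and 2397 at 24 h and 2591, 2522 and 2449 at 6 h, against 2110.2, 2193 and 2024 in PBS (0.26 ± 0.056 at 6 h). The last 2 are unlike the others. NOL6, whose yeast counterpart is Utp22, passed at 24 h alone (0.44 ± 0.15, adjusted p = 0.0454), with signals of 308 to 378 at 24 h and 278 to 355 at 6 h, against 195 to 282 in PBS, and lost the call without any of 7 single arrays (PBS 2 or 3, 6 h 1 or 2, or any 24 h array; 0.051 to 0.13). Without PBS array 1 it passed at 6 h too (0.50, adjusted p = 0.038). RRP7A (202937_x_at) had 471, 718 and 566 at 24 h and 643, 620.1 and 602 at 6 h, against 637, 733 and 627 in PBS, overlapping throughout. Without 24 h array 2, the highest of its group, RRP7A would be called lower at 24 h (-0.35, adjusted p = 0.036).

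Other processome and 40S factors, 37 genes outside the 44, were higher in 18 and lower in 2 at 24 h, and higher in 20 and lower in none at 6 h (1 lower at an unadjusted p under 0.05), with median log2 fold changes of 0.25 and 0.29. The largest rises past the test were those of the helicase DHX37 (0.37 ± 0.11 and 0.79 ± 0.11), PNO1, which binds the 40S precursor (0.47 ± 0.044 and 0.72 ± 0.044), and PWP2 (0.33 ± 0.058 and 0.68 ± 0.058). HEATR1, the largest protein of the UTP4 and UTP15 subcomplex, had a log2 difference of 0.54 ± 0.19 at 24 h and 0.31 ± 0.19 at 6 h, neither past the test (adjusted p = 0.0525 and 0.234). Its PBS array 1 was the highest of its group, and without it both passed (0.72, adjusted p = 0.012, and 0.49, adjusted p = 0.050). TSR2, which escorts a 40S ribosomal protein, was lower at 24 h (-0.37 ± 0.066). DHX37 lost its 24 h call without PBS array 2 or 3 or 24 h array 1 or 3 (0.066 to 0.082), and HEATR1 gained one at 24 h also without 24 h array 3 (0.71, adjusted p = 0.019).

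All 3 members that finish and export the 40S subunit were higher at 6 h, and 2 of them at 24 h. BYSL (203612_at), bystin, which stays on the 40S precursor until late steps, had 1568, 1808 and 1631 at 24 h and 2204, 2105 and 2046 at 6 h, against 1207, 1175 and 1097 in PBS. It was 1.43-fold and 1.82-fold higher (adjusted p = 0.000653 and 5.08e-05), and the 3 groups did not overlap. RRP12 (216913_s_at), known from yeast to aid export of both subunits, had 608, 593 and 602 at 24 h and 685, 605 and 561 at 6 h, against 359, 414 and 395 in PBS, 1.52-fold and 1.56-fold higher. TSR1 (218156_s_at), a GTPase-like factor of the cytoplasmic 40S precursor, had 1206, 991 and 1139 at 24 h and 1331, 1333 and 1473 at 6 h, against 988, 1090.1 and 794 in PBS, and was higher at 6 h alone (0.53 ± 0.12, adjusted p = 0.0103).

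In the 60S group, 6 of the 12 members tested were higher at 24 h and 7 at 6 h, and none was lower, also at an unadjusted p under 0.05. PES1 and WDR12 form the PeBoW complex with BOP1. PES1 (202212_at) had 1313, 1154 and 1369.5 at 24 h and 1398, 1309.9 and 1454 at 6 h, against 795, 1025 and 698 in PBS, 1.53-fold and 1.66-fold higher (adjusted p = 0.00815 and 0.0035). WDR12 (218512_at) had 5286, 5354 and 5230.2 at 24 h and 5122, 4758 and 4883 at 6 h, against 4411, 4652 and 4534 in PBS, called at 24 h alone (0.22 ± 0.049), with arrays apart from PBS at both times. So both measured partners were higher at 24 h, PES1 by the larger step.

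NOC2L and NOC3L are counterparts of yeast proteins that pair in early 60S precursors. NOC3L (218889_at) had 4029.9, 4118 and 4089.8 at 24 h and 5202, 5514 and 5517 at 6 h, against 3301, 3270.2 and 3028 in PBS, 1.27-fold and 1.69-fold higher (adjusted p = 0.00128 and 2.5e-05), with the 3 groups apart. NOC2L (202115_s_at) had 855, 874 and 906 at 24 h and 831, 824 and 873 at 6 h, against 615, 625 and 610.0 in PBS, higher by 0.50 ± 0.048 and 0.44 ± 0.048, with the HAase groups overlapping. RRP15 (219037_at), another early 60S factor, had 2410.5, 2442 and 2456 at 24 h and 2896, 2677 and 2689 at 6 h, against 1723, 1654 and 1569.8 in PBS, 1.47-fold and 1.66-fold higher (adjusted p = 0.00012 and 3.67e-05). All 3 stood above PBS on every HAase array.

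RRP1 and RRP1B are paralogs, and they passed the test at different times. RRP1 (218758_s_at) had 662, 774 and 657 at 24 h and 1163, 976 and 1146 at 6 h, against 599, 653 and 530.1 in PBS, 1.82-fold higher at 6 h (adjusted p = 0.000459) and not called at 24 h (0.23 ± 0.11). RRP1B (212846_at) had 4873, 5099 and 5304 at 24 h and 3746, 3801 and 3865 at 6 h, against 4296, 4087 and 3892 in PBS, 1.24-fold higher at 24 h (adjusted p = 0.003) and not called at 6 h (-0.10 ± 0.057). All 3 arrays of RRP1B at 6 h lay below all 3 PBS arrays, and all 3 at 24 h above them. Whether the paralogs differed from each other was not tested.

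NOP2 (214427_at), an rRNA cytosine methyltransferase, had 848, 767 and 1000.2 at 24 h and 1176, 1035 and 1234 at 6 h, against 780.5, 622 and 605 in PBS, 1.71-fold higher at 6 h (adjusted p = 0.00231). At 24 h its value of 0.38 ± 0.13 did not pass (adjusted p = 0.0544), and it passed without PBS array 1 (0.49, adjusted p = 0.022) or 24 h array 2 (0.46, adjusted p = 0.040). NOP16 (214011_s_at) had 2976, 2862 and 2849.9 at 24 h and 3904, 3670.0 and 3242 at 6 h, against 2390.3, 3045 and 2301 in PBS, higher at 6 h alone (0.49 ± 0.11). PBS array 2 was high, and without it NOP16 passed at 24 h too (0.30, adjusted p = 0.034). RRP8, a methyltransferase of the large rRNA, was not called (0.30 and 0.24), with signals of 619 to 770 at 24 h and 631 to 722 at 6 h, against 504 to 622 in PBS. It passed at 24 h without PBS array 1 (adjusted p = 0.046) or 24 h array 3 (0.024). NOL8 and NOL9, the second an RNA kinase of pre-rRNA processing, overlapped PBS at both times, with log2 differences between -0.041 (NOL9 at 24 h) and 0.053 (NOL8 at 6 h).

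**Figure D2:**
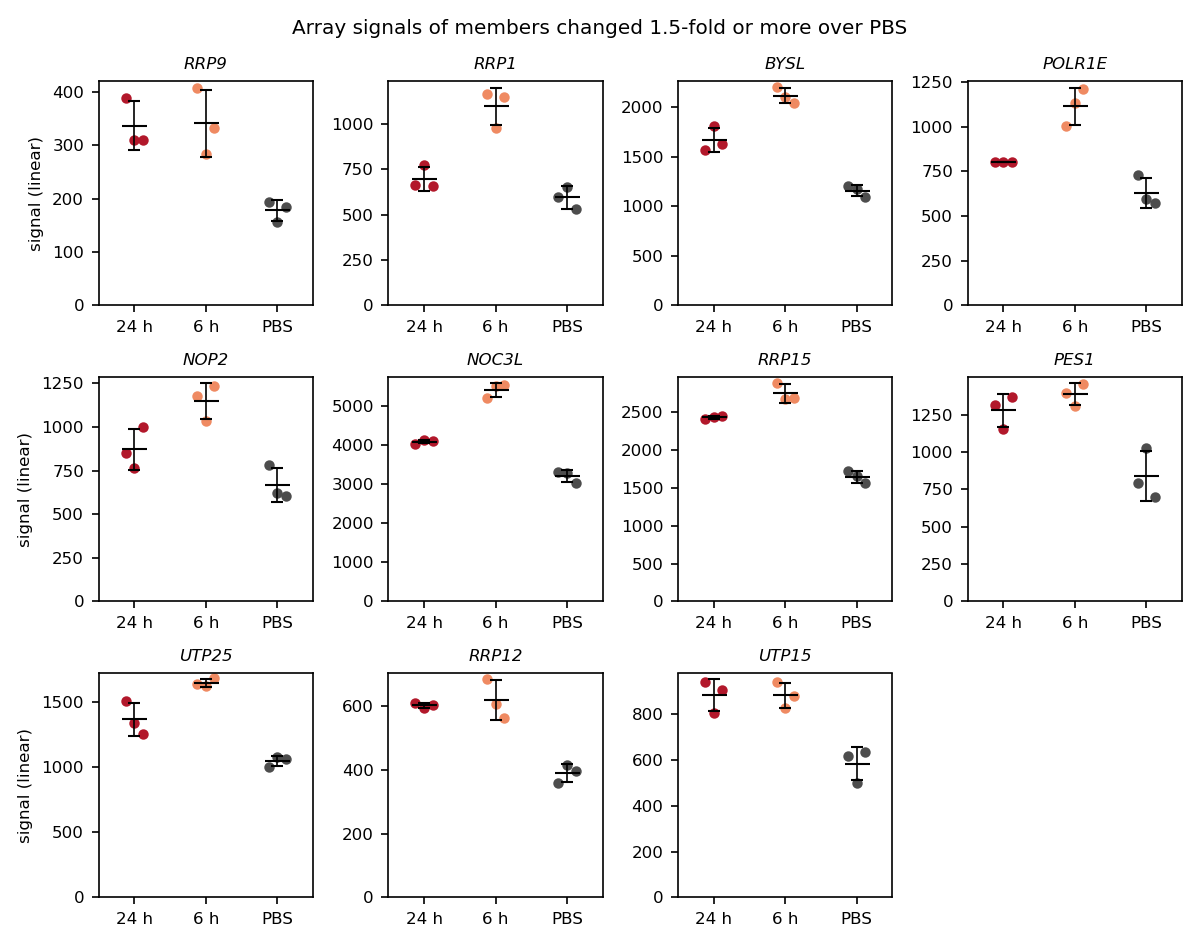
Linear signal on each array of the 11 members that rose 1.5-fold or more past the test at either time, for HAase at 24 h (dark red), HAase at 6 h (orange) and PBS (grey), with mean and SD (n = 3). All HAase arrays lie above all PBS arrays except for NOP2 at 24 h, whose lowest array, 767, lies under the highest PBS array, 780.5.

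Other 60S factors, 42 further genes, were higher in 24 and lower in 2 at 24 h, and higher in 27 and lower in none at 6 h (1 lower at an unadjusted p under 0.05), with median log2 fold changes of 0.26 and 0.28. DDX21, a nucleolar RNA helicase, had signals of 14574 ± 248 at 24 h and 19784 ± 427 at 6 h, against 9583 ± 38.2 in PBS (SD, n = 3 each), 1.52-fold and 2.06-fold higher. URB2 was higher at 6 h (0.96 ± 0.13) and NIP7 at both times (0.45 ± 0.12 and 0.95 ± 0.12), while the helicase DDX24 was lower at 24 h (-0.26 ± 0.049). NIP7 lost its 24 h call without PBS array 1 or 2 or 24 h array 3 (adjusted p = 0.057 to 0.072), and URB2 gained one without 24 h array 3 (0.42, adjusted p = 0.039). Of 16 genes of the exosome, the nuclease complex that trims pre-rRNA, and related factors, 6 were higher and none lower at 24 h (0 lower also at an unadjusted p under 0.05), and 5 were higher and 1 lower at 6 h. The share higher was 37.5% at 24 h and 31.25% at 6 h, against 17.5% and 15% of all genes tested. EXOSC6 was 2.22-fold higher at 24 h, EXOSC4 was higher at both times (0.42 ± 0.049 and 0.58 ± 0.049), the exonuclease ISG20L2 was higher at 6 h (0.51 ± 0.07) and EXOSC8 fell by 0.26 on the log2 scale at 6 h.

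Few genes of the ribosome's own proteins passed the test. Whether their signals lay near the top of the array's range was not tested. Of 52 cytosolic ribosomal protein genes tested, 2 were higher and none lower at 24 h (0 lower also at an unadjusted p under 0.05), and none passed limma's test in either direction at 6 h (0 of 52 also at an unadjusted p under 0.05), with median log2 fold changes of 0.021 and 0.0068. Across all 121 other pathway genes tested outside the polymerase II and III lists, 58 were higher and 5 lower at 24 h, and 64 were higher and 3 lower at 6 h, with medians of 0.23 and 0.26.

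**Figure D3:**
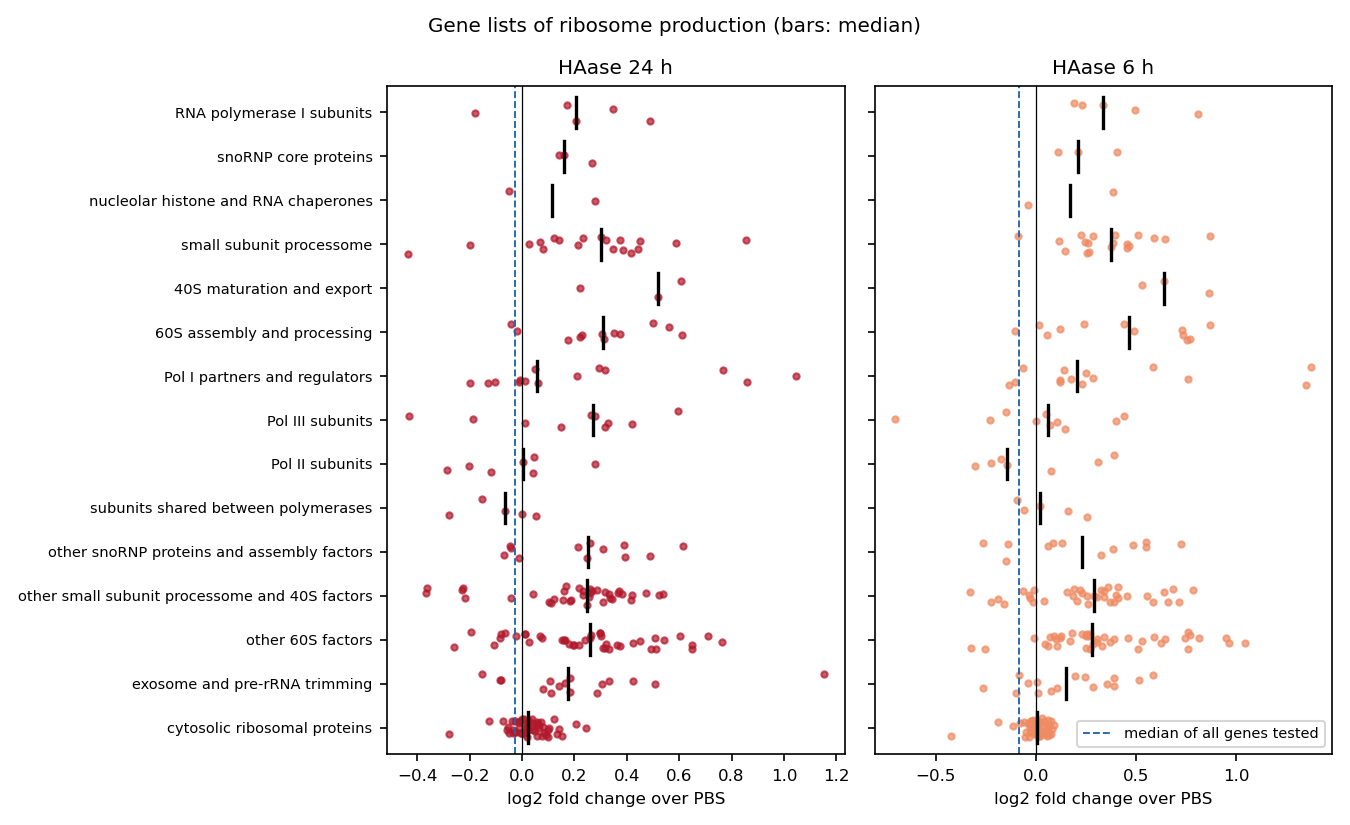
Log2 fold change over PBS of each gene (points) in the member groups and in the other lists of ribosome production, at 24 h (left) and 6 h (right), with the median of each list as a black bar. The dashed line is the median of all genes tested, -0.026 at 24 h and -0.083 at 6 h. The cytosolic ribosomal proteins cluster near 0 and most factor lists have medians to its right.

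The direct comparison of 24 h with 6 h asks how the members differed between the times, and it sets no PBS array against them. By limma, 1 member was higher at 24 h than at 6 h and 13 were lower, whereas 19.7% of all genes tested were higher and 13.3% lower (33.0% in either direction). RRP1 alone was lower by 1.5-fold or more (5.54% of all genes), and none was higher by as much (6.13%). The arrays did not overlap in 25 members, 4 higher and 21 lower, against 45.9% of all genes (27.5% higher and 18.4% lower). The median log2 difference was -0.097 for the members and 0.053 for all genes. Lower at 24 h were POLR1A, POLR1C, POLR1E, UTP4, UTP14A, UTP20, UTP25, NOL11, NOP9, BYSL, NOC3L, RRP1 and RRP15, and RRP1B was higher.

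The largest fall was that of RRP1, to 698 ± 66.5 at 24 h, against 1095 ± 104 at 6 h (SD, n = 3 each), 1.56-fold lower (adjusted p = 0.00298). NOP9 was 1.46-fold lower (adjusted p = 0.00129), POLR1E 1.38-fold (0.0106) and NOC3L 1.32-fold (0.000907). At 24 h the arrays of NOP9 lay below PBS, and those of RRP1, POLR1E and NOC3L still lay above it. POLR1A (-0.37 ± 0.099) and POLR1C (-0.32 ± 0.10) were lower as well, so that 3 of the 5 polymerase I subunits were lower at 24 h than at 6 h. BYSL (-0.34 ± 0.07), UTP20 (-0.33 ± 0.084), UTP14A (-0.31 ± 0.068), UTP25 (-0.27 ± 0.072), UTP4 (-0.25 ± 0.053) and NOL11 (-0.24 ± 0.05) followed, and RRP15 was the smallest (-0.17 ± 0.056). RRP1B was 1.34-fold higher (adjusted p = 0.00104), at 5092 ± 215 at 24 h, against 3804 ± 59.8 at 6 h.

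Of the 11 members called at 6 h and not at 24 h, 5 differed between the times: POLR1C, UTP14A, UTP20, NOL11 and RRP1. For the other 6, NOP10, UTP23, RRP36, TSR1, NOP2 and NOP16, the difference between the times did not pass the test, with log2 values of -0.40 (NOP2) to -0.048 (NOP10). RRP9, RRP12, UTP15 and PES1, the 4 members that were at least 1.5-fold above PBS at 24 h, differed from 6 h by -0.01 ± 0.15, -0.032 ± 0.083, 0.0028 ± 0.10 and -0.12 ± 0.14, none past the test. Several calls changed with single arrays left out. POLR1C lost its call without any of 7 arrays (PBS 2 or 3, 6 h 1 or 3, or any 24 h array; adjusted p = 0.050 to 0.13), RRP15 without any array but PBS 3 (0.053 to 0.14), UTP25 without any 6 h array or 24 h array 2 or 3 (0.053 to 0.070), POLR1A without 6 h array 1 or 24 h array 1 or 3 (0.050 to 0.071), and UTP20 without 6 h array 3 or 24 h array 3 (0.058 to 0.067). Calls were gained by NOP2 without PBS array 1 or 24 h array 3 (0.036 and 0.031), by NOP16 without PBS array 2 (0.023), by TSR1 without PBS array 3 (0.040) and, as a rise, by UTP6 without PBS array 1 or 3 (0.045 and 0.029).

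**Figure D4:**
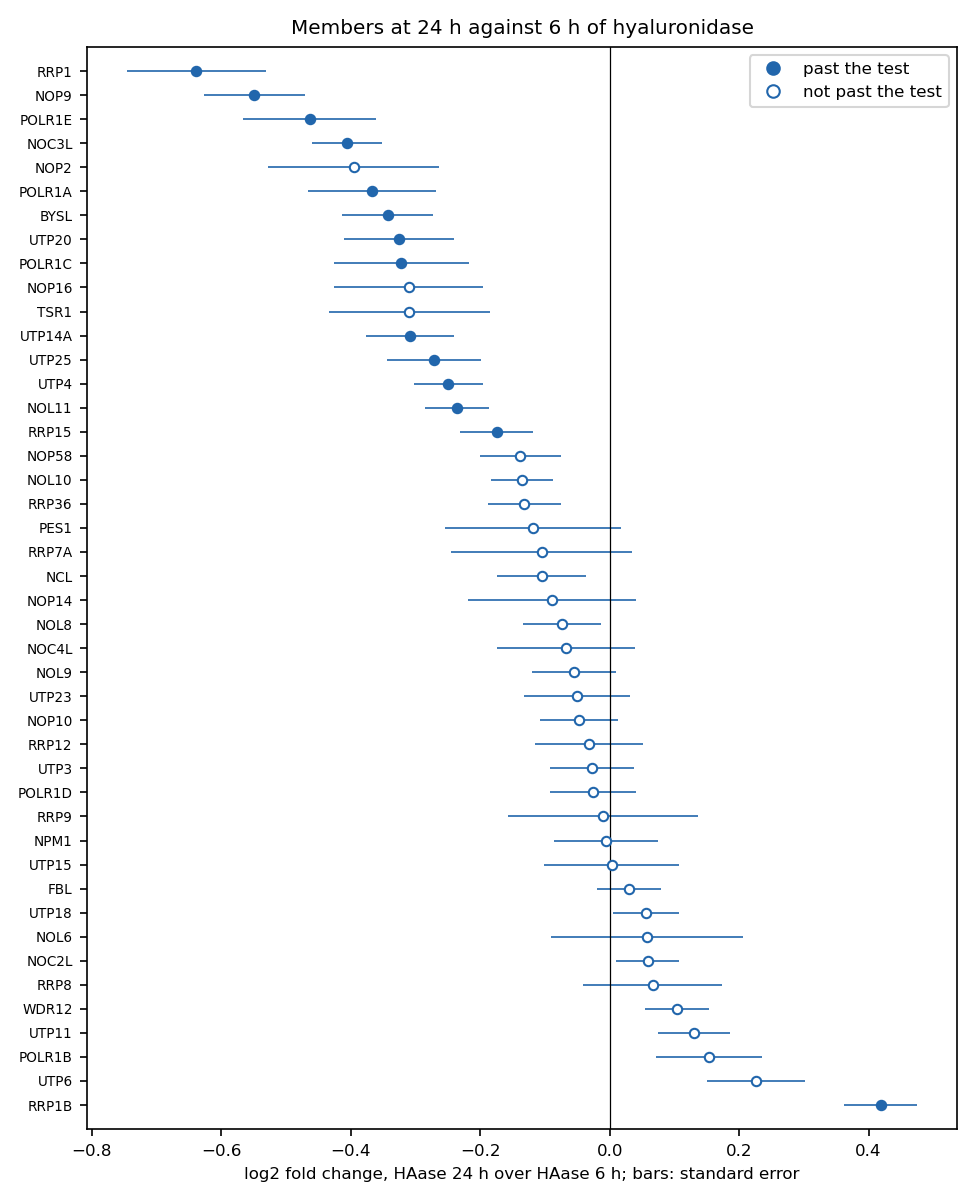
Log2 fold change of the 44 members tested at 24 h over 6 h of hyaluronidase, in order of size, with standard errors. Filled circles passed the test. The 13 filled circles left of 0 run from -0.64 (RRP1) to -0.17 (RRP15), and the filled circle of RRP1B stands at 0.42.

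For 27 members the array holds 1 or more further probe sets above the filter, 48 in all, which measure other stretches of the transcripts and were fitted together with all such probe sets. At 24 h, 11 of the 48 were higher than in PBS, none was lower and 37 were not called. A positive log2 fold change was found in 37 of the 48. At 6 h, 15 were higher, none lower and 39 positive, and between 24 h and 6 h none was higher and 6 were lower. No member had probe sets called in opposite directions. The call of a further probe set differed from that of the member's main probe set in 16 members at 24 h and in 15 at 6 h. At 24 h these were NCL, NOC2L, NOL10, NOP16, NOP9, NPM1, POLR1B, POLR1C, POLR1E, RRP12, RRP15, RRP1B, RRP7A, TSR1, UTP15 and WDR12. At 6 h they were NOC2L, NOL10, NOP16, NPM1, POLR1B, POLR1E, RRP1, RRP12, RRP15, RRP36, RRP7A, TSR1, UTP15, UTP18 and UTP23.

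Further probe sets gave other results than the main one for NPM1, RRP7A and NOP9. For NPM1, probe set 221923_s_at was higher at both times (0.18 ± 0.057 and 0.24 ± 0.057), at 12690.1 ± 382 at 24 h and 13254 ± 96.9 at 6 h, against 11231 ± 379 in PBS (SD, n = 3 each), where the main set did not pass. For RRP7A, probe set 229564_at was higher by 0.31 ± 0.091 at 24 h and 0.79 ± 0.091 at 6 h, at 213 ± 19.4 and 305 ± 19.5, against 169 ± 13.7 in PBS, whereas the other 2 sets did not pass. For NOP9, probe set 1555390_at, with signals near the control level, gave -0.028 at 24 h, against -0.44 on the main one. All 4 probe sets of UTP25 were higher at both times, with log2 fold changes of 0.32 to 0.47 at 24 h and 0.57 to 0.76 at 6 h.

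As with NPM1 and RRP7A, a further probe set of 3 other members passed at 24 h where the main one did not. POLR1C rose on 209317_at (0.34 ± 0.077 and 0.72 ± 0.077), NOP16 on 203023_at (0.57 ± 0.15 and 0.94 ± 0.15) and TSR1 on 221987_s_at (0.39 ± 0.083 and 0.61 ± 0.083). Of POLR1A's 2 further sets, neither passed at any comparison, and at 6 h both lay below 0 (-0.12 and -0.11) where the main set lay above it. Dim further sets of RRP12, NOC2L and NOL10, with mean signals of 33.0 to 106, did not pass although the main sets did. A further set of UTP15, of RRP15 and of POLR1E also failed the test at each time although the main set passed. The same held at 24 h for RRP1B, WDR12, NCL and POLR1B. At 6 h it held for RRP1, POLR1B, NOP16, RRP36, TSR1, UTP18 and UTP23.

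With the mean of all probe sets of a gene in place of the brightest, 10 members lost their call at 24 h: POLR1B, POLR1D, POLR1E, UTP6, NOL6, NOL10, NOP9, WDR12, NOC2L and RRP1B. The fall of NOP9 at 24 h then stood at -0.23 (adjusted p = 0.32). At 6 h, 8 lost it in that way (POLR1B, UTP6, UTP11, UTP14A, NOL10, RRP36, NOP16 and NOC2L), and between the times 6 did (POLR1A, UTP14A, NOP9, RRP1, RRP1B and RRP15). Without probe sets whose names end in _x_at or _s_at, the calls of POLR1B, NOC2L and RRP12 were lost at both times, those of NCL, NOL6 and POLR1D at 24 h, that of UTP6 at 6 h, and those of UTP25 and RRP15 between the times. The log2 difference on the remaining probe sets was as large or larger for NCL at 24 h (0.38 ± 0.15, against 0.28 with all probe sets) and at 6 h for NOC2L (0.84 ± 0.44, against 0.44) and RRP12 (0.94 ± 0.33, against 0.64), with larger standard errors. It was smaller for POLR1B (0.24 at 24 h and 0.031 at 6 h, against 0.49 and 0.33), NOL6 at 24 h (0.071, against 0.44), and at 24 h for RRP12 (0.34, against 0.61) and NOC2L (0.060, against 0.50). Other settings of the filter, the normalisation or the arrays in the fit ended calls of POLR1D, POLR1E, UTP4, NOL6 and NOP14 at 24 h, of POLR1D, NOP10, UTP6 and UTP23 at 6 h, and of POLR1A, POLR1C, UTP25 and RRP15 between the times.

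**Figure D5:**
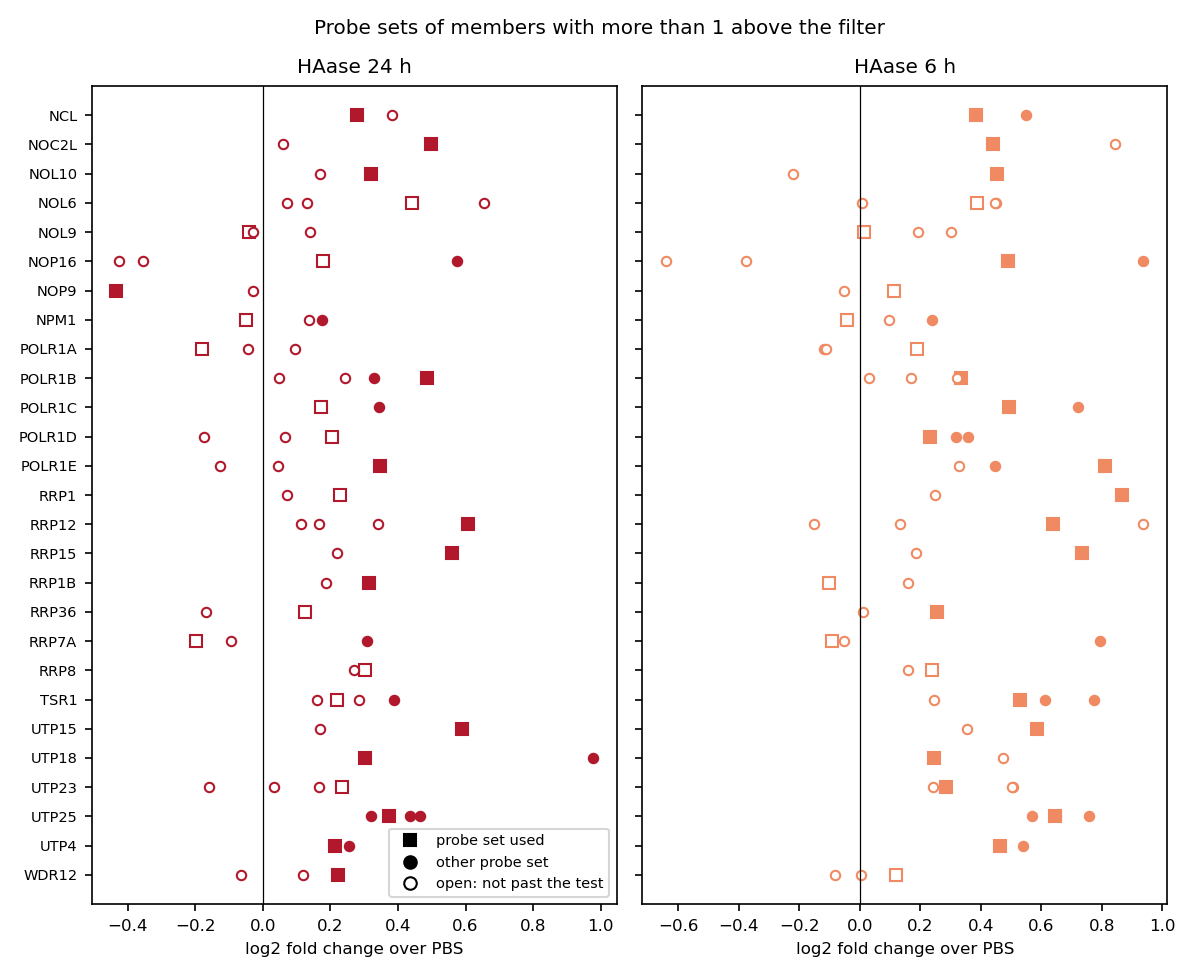
Log2 fold change over PBS of every probe set above the filter for the 27 members with more than 1, at 24 h (left) and 6 h (right). Squares are the probe sets used for the gene and circles the others, and open symbols did not pass the test in the fit over all probe sets, in which POLR1D and NOL6 at 24 h missed the threshold. No member has filled symbols on both sides of 0.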

How the data were processed

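Total RNA of LiSa-2 cells was hybridised to 1 array per sample, 9 in all. The deposited values are linear probe set intensities (signals), in tables that were made from the CHP files, per the series' design text, and the summarisation algorithm is not given in the sources used here. Each array's trimmed mean lay between 500.07 and 500.08. Of 54675 probe sets, 62 are controls, and the platform's annotation gives 1 gene symbol to 41091 of the others, several symbols to 1801 and no symbol to 11721, while 41037 of those with 1 symbol matched RefSeq (GRCh38.p14).

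Per gene, the probe set with the highest mean signal was kept, and genes under the 30th percentile of the mean (signal 32.2) were left out. limma 3.58.1 in R 4.3.3 (lmFit, eBayes) was fitted to log2(signal + 16) of all 9 arrays with 1 mean per group, and every adjusted p is its Benjamini-Hochberg value over the 13842 genes. Probe sets were fitted the same way in a fit of their own. The code was tested on simulated data. Precision is limited by the number of arrays. The members and gene lists were chosen with earlier results of these data known. Every member is described, with each array's signal for those that rose 1.5-fold, for the 3 smallest groups of subunits and chaperones, and where probe sets differed in their call. From each other list the 3 largest rises and the largest fall past the test are named, with RRN3, UBTF, MYC and HEATR1. Alternatives were another pseudocount, filter, normalisation, probe set rule, variance model and set of arrays, a replicate block, and leaving out each array. Same-numbered arrays did not deviate together (r between -0.049 and 0.037), so the numbers were not taken to pair samples.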

Additional observations from a re-analysis of the deposited data

Results flagged for a closer look

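Signals at 24 h and at 6 h of hyaluronidase differed, by limma's direct test at an adjusted p under 0.05, for 14 members and 22 other named genes of the pathway. PBS was taken at 24 h alone, so the enzyme and the time of harvest cannot be told apart in these differences. With 3 arrays per group no test for a single array far from the others was made. All values are log2 differences, 24 h minus 6 h.

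Among the subunits of RNA polymerase I, the value was -0.37 for POLR1A, -0.32 for POLR1C and -0.46 for POLR1E. Among small subunit processome members it was -0.25 for UTP4, -0.31 for UTP14A, -0.33 for UTP20, -0.27 for UTP25, -0.24 for NOL11 and -0.55 for NOP9. For BYSL it was -0.34. In the 60S group it was -0.41 for NOC3L, -0.64 for RRP1 and -0.17 for RRP15, and RRP1B, at 0.42, was the member higher at 24 h.

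Of the other genes, 16 were lower at 24 h than at 6 h. The regulators MYC and CAVIN1 stood at -0.58 and -0.45. The 40S and processome factors DHX37, PWP2, PNO1 and TSR2 stood at -0.42, -0.35, -0.24 and -0.21, and the 60S factors URB2, NIP7, DDX21 and DDX24 at -0.64, -0.50, -0.44 and -0.25. SHQ1 stood at -0.30 and NOLC1 at -0.24, the polymerase II subunit POLR2C at -0.35 and the shared subunit POLR2L at -0.18, and ISG20L2 and EXOSC4 at -0.59 and -0.16. The other 6 were higher at 24 h: EXOSC6 at 0.76, EXOSC8 at 0.37, POLR3E at 0.33, POLR2I at 0.31, POLR3GL at 0.27 and ZNHIT3 at 0.25.

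Some of these calls were lost when 1 array was left out. EXOSC4 lost its call without any array but PBS 3 (adjusted p = 0.051 to 0.11), TSR2 without any array but 6 h array 2 (0.066 to 0.13), POLR2L without any array but 6 h array 3 or 24 h array 2 (0.055 to 0.11), NIP7 without 6 h array 3 or 24 h array 1 or 2 (0.052 to 0.058), DHX37 without 6 h array 3 or 24 h array 2 (0.062 to 0.063), POLR3GL without 6 h array 1 or 3 (0.051 to 0.070) and ZNHIT3 without 6 h array 2 or 3 (0.052). POLR1G would be lower at 24 h than at 6 h without 24 h array 2 (-0.47, adjusted p = 0.0089), RRN3 lower without 6 h array 3 (-0.25, adjusted p = 0.039) and POLR3A higher without PBS array 2 or 3 (0.25, adjusted p = 0.023 to 0.031).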

How the results depend on the processing

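Under 21 alternatives, 1 of them chosen after seeing the data, no member's call turned round. Of the members called, 11 of 25 at 24 h, 19 of 32 at 6 h and 5 of 14 between 24 h and 6 h passed under every one. With 1 array left out, 21 to 25 members were called at 24 h (20 to 24 higher and 1 to 2 lower), 28 to 32 at 6 h, none of them lower, and 10 to 15 between the times (1 to 2 higher and 9 to 13 lower). The mean of all probe sets of a gene gave 0 members lower at 24 h, where 1 was, 0 higher between the times, where 1 was, and 1808 genes higher between the times, against 2731. It also put UBTF at 24 h below 0 (-0.40, adjusted p = 0.0488), and the cause was not tested. Between the times, 2 members were higher with log2(signal + 64), a filter at the 50th percentile, quantile normalisation, a trended and robust variance, or only the 2 groups compared. The alternative added later set the arrays to equal medians over the genes tested, which moved the median of all genes at 6 h to 0.052 from -0.083. Genes higher and lower at 6 h then numbered 3136 and 2387, against 2073 and 3790, and 38 members were higher and none lower (median 0.52), 32 were higher and 1 lower at 24 h, and 17 were lower between the times. Over all 21, members higher at 6 h numbered 24 to 38, with 0 lower throughout, and members higher at 24 h 17 to 32. A replicate block, although the numbers do not pair the samples, left 22 members called at 24 h (21 higher), 30 at 6 h and 10 between the times (9 lower). Arrays of 1 cell line, 3 per group, set the limit of these results.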
